A study of Mus musculus with 54 samples.

Results

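The 9 TNF superfamily ligand genes described here are Cd40lg, Fasl, Lta, Ltb, Tnfsf4, Tnfsf8, Tnfsf10, Tnfsf11, and Tnfsf14, a listed set that leaves out Tnf itself. They were read from tables of 55385 genes, and all 9 passed the filter of at least 1 read over a table, together with 32290 genes in the first table and 27780 in the second. RNA was sequenced from naive CD4+ T cells of C57BL/6 mice in 2 experiments, each with 3 biological replicates per group. In the CD5/CD6 experiment, 36 libraries covered WT, Cd5-/-, Cd6-/-, and Cd5-/-Cd6-/- cells isolated by negative magnetic selection. The Cd5-/- line is a conventional knockout, the Cd6-/- line lost a short stretch that includes the start codon, so that Cd6 reads remain, and the Cd5-/-Cd6-/- line was cut by CRISPR near the start of Cd5 and near the start of Cd6, losing what lies between. In the LAT experiment, 18 libraries covered WT and Lat-/- cells, and both kinds came from Lat fl-dtr maT-Cre mice, in which Cre acts in T cells. WT cells were the sorted cells that still carried the human DTR reporter (hDTR+), and Lat-/- cells were those without it (hDTR-). Cells of every genotype were taken unstimulated (0 h) or after 4 h or 20 h on plates coated with anti-CD3 (3 µg/ml), with anti-CD28 (1 µg/ml) in solution. The methods give an age of 8 to 10 wk for the mice and a purity above 95% for the magnetically isolated cells, and the sources do not say whether replicates came from separate animals.

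TNF superfamily ligands are mostly trimeric membrane proteins that signal by bringing receptors of the TNF receptor superfamily together on a neighboring cell. On CD4+ T cells, CD40L (encoded by Cd40lg) licenses B cells and dendritic cells, OX40L (Tnfsf4), CD30L (Tnfsf8), and LIGHT (Tnfsf14) are costimulatory ligands, RANKL (Tnfsf11) acts on dendritic cells and osteoclast precursors, and lymphotoxin α (Lta) and lymphotoxin β (Ltb) organize lymphoid tissue. FasL (Fasl) and TRAIL (Tnfsf10) are death ligands that bind FAS and the mouse TRAIL receptor (Tnfrsf10b). Several of these genes are known as early targets of T cell receptor signaling, to which the adaptor LAT belongs.

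The RefSeq promoter table (GRCm38.p6) held 7 of the 9 members. The sequences of 6 are shown because Lta, Tnfsf11, Tnfsf14, and Fasl rose together at 4 h, whereas Ltb fell late and Tnfsf10 fell at 4 h. Each is the part of the 250 bases before the annotated start that lies outside the GENCODE gene model, on the strand of the gene. Capitals mark matches, on either strand, to the NFAT core GGAAA, the AP-1 motif TGANTCA, a kappaB-like motif GGGANNTTC, or the TATA motif TATAAA.
Lta (chr17:35205352-35205601, minus strand): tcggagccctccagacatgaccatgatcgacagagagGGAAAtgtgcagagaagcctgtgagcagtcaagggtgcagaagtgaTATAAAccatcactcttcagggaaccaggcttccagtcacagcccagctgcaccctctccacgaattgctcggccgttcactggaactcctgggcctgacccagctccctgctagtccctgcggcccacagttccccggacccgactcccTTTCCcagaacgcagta
Tnfsf11 (chr14:78308044-78308293, minus strand): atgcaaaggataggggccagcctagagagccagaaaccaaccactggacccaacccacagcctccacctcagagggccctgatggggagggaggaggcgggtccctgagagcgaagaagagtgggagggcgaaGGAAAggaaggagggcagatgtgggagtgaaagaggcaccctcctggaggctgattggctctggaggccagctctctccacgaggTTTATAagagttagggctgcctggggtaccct
Tnfsf14 (chr17:57194182-57194431, minus strand): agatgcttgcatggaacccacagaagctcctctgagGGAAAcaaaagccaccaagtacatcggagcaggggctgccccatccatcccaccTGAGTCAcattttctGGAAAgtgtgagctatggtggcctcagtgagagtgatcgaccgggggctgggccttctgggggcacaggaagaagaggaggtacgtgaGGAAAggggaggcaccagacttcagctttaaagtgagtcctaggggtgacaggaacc
Fasl (chr1:161788496-161788745, minus strand): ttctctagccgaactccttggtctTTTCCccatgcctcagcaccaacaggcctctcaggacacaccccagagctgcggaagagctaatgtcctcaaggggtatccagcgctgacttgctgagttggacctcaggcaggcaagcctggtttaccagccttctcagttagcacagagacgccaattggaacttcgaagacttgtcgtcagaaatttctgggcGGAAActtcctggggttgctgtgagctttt
Ltb (chr17:35194257-35194438, plus strand): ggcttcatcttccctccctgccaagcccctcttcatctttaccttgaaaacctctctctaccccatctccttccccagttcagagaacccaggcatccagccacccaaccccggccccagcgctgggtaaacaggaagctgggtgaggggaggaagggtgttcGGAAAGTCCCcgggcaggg
Tnfsf10 (chr3:27316827-27317027, plus strand): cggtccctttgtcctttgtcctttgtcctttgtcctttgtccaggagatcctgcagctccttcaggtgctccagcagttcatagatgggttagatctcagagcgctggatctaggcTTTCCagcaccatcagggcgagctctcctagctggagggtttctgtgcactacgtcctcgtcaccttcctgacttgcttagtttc
The NFAT core matched in all 7 windows of 250 bases, with 3 matches in Tnfsf14, 2 each in Lta and Fasl, and 1 each in Ltb, Tnfsf8, Tnfsf10, and Tnfsf11, and it matched in 55.6% of all 32817 promoters of that length. The AP-1 motif matched in Tnfsf14 alone of the 7 (6.75% of all promoters). The kappaB-like motif matched in Ltb alone (3.23%), where it overlaps the NFAT core by all but 1 base of the shorter motif. The TATA motif matched in Lta and, on the opposite strand, in Tnfsf11 (12.4%). These matches describe letters and not occupied sites.

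The libraries held 20554354 to 45222554 counts in the CD5/CD6 experiment and 17784644 to 28501095 in the LAT experiment, so that 3 counts, taken as the floor, stood for at most 0.169 CPM (counts scaled to a common library size, elsewhere with edgeR's TMM factors). The floors and the intervals of read ratios cover counting error only, whereas the intervals of log2 changes come from edgeR's SE. Lat was 92.2 to 351 CPM in the sorted WT libraries and 5.69 to 19.1 CPM in the Lat-/- libraries. Cd5 and Cd6 were at 0.149 to 0.663 CPM in the Cd5-/-Cd6-/- libraries, but the 0 h libraries 2 labelled Cd5-/- and Cd6-/- went against their labels, with Cd5 at 719 CPM and 172.5 CPM, against 105 and 129 CPM and 719 and 724 CPM in the other 0 h libraries of the same labels. Cd6 was 329 CPM and 1203 CPM in these 2 libraries, against 1298 and 1084 CPM and 349 and 251 CPM in the other 0 h libraries of the same labels. Each of the 2 thus held Cd5 and Cd6 levels near those of the other label. Labels were kept, and values that rest on these libraries were also computed without both. The 5 markers of CD4 T cells summed to between 2350 and 6670 CPM in all libraries. Markers of B cells (5 genes, 59.9 to 538 CPM) and of myeloid and dendritic cells (5 genes measured, 44.9 to 355 CPM) were present in the 0 h libraries of the CD5/CD6 experiment and summed to 1.24 to 4.46 CPM and 0.133 to 0.564 CPM at 20 h. In the sorted libraries of the LAT experiment, they never summed to more than 4.73 CPM and 3.10 CPM.

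In unstimulated WT cells, Ltb and Cd40lg stood far above the other ligands. Per kilobase of exon, Ltb averaged 681 ± 133 CPM/kb (SD, n = 3) in the CD5/CD6 experiment and Cd40lg 104 ± 17.9 CPM/kb. The other members followed in the order Tnfsf8 (14.1 CPM/kb), Lta (11.9 CPM/kb), Fasl (8.38 CPM/kb), Tnfsf10 (7.10 CPM/kb), Tnfsf11 (3.59 CPM/kb), Tnfsf14 (1.38 CPM/kb), and Tnfsf4 (0.205 CPM/kb). Lta and Fasl overlapped in their libraries, as did Fasl and Tnfsf10, and the other neighbors in this order did not. At 4 h, the order ran Ltb (843 CPM/kb), Cd40lg (727 CPM/kb), Tnfsf11 (183 CPM/kb), Lta (174 CPM/kb), Tnfsf14 (116 CPM/kb), Tnfsf8 (84.3 CPM/kb), Fasl (69.8 CPM/kb), Tnfsf10 (1.01 CPM/kb), and Tnfsf4 (0.427 CPM/kb). Here, Ltb and Cd40lg overlapped, as did Tnfsf11 with Lta and Tnfsf8 with Fasl. At 20 h, Ltb (197 CPM/kb) was followed by Lta (140 CPM/kb), Cd40lg (108 CPM/kb), and Tnfsf11 (87.1 CPM/kb), and Lta did not differ from Cd40lg, nor Cd40lg from Tnfsf11, beyond the spread of their libraries.

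After 4 h of stimulation, 7 of the 9 ligand genes rose and 1 fell in the WT libraries of the CD5/CD6 experiment. A gene was called here when its fold change was above 2 and its Benjamini-Hochberg adjusted p, from edgeR's quasi-likelihood test over all genes, was under 0.05. Over all genes, 8.24% were called higher and 11.1% lower at 4 h. The median log2 change of the members was 2.81, against 0 over all genes tested and -0.0774 over those that averaged 10 counts or more. Of the 32290 genes tested, 16143 remained with edgeR's filter on low counts, all 9 members among them. Shares of all genes thus include many genes with few reads. At 20 h against 0 h, 5 members rose and 2 fell (12.3% and 17.3% of all genes, member median 1.06), and at 20 h against 4 h, 2 rose and 6 fell (8.74% and 12.2%, member median -1.51). In bulk RNA, fewer cells of a type and less RNA per cell cannot be told apart.

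The lymphotoxin genes parted ways. Lta was 14.0, 16.6, and 18.7 CPM in the WT libraries at 0 h, 222, 276, and 223 CPM at 4 h, and 192, 196, and 192 CPM at 20 h. All stimulated libraries lay above all unstimulated ones, and Lta rose by a log2 of 3.87 ± 0.20 (SE) at 4 h (14.6-fold, adjusted p = 3.93e-28) and of 3.56 ± 0.20 at 20 h (adjusted p = 1.00e-26). From 4 h to 20 h, its log2 change was -0.31 (adjusted p = 0.209), although the libraries of the 2 times did not overlap. Ltb was 930, 904, and 1265 CPM at 0 h, 1268, 1189, and 1377 CPM at 4 h, and 317, 259, and 319 CPM at 20 h. The 0 h and 4 h libraries of Ltb overlapped, with a log2 change of 0.31 (adjusted p = 0.146), and at 20 h Ltb fell 3.46-fold against 0 h (log2 -1.79 ± 0.16, adjusted p = 1.81e-16). B cells also express Ltb, and the B cell markers fell over the same times in this experiment (96.5 to 538 CPM at 0 h and 1.80 to 3.27 CPM at 20 h in WT). In the sorted WT cells of the LAT experiment, Ltb fell 3.24-fold from 0 h to 20 h (log2 -1.70 ± 0.15). The part of B cells in the fall of Ltb was not tested. Lta and Ltb lie near each other on the same chromosome, Lta at chr17:35203165-35205351 on the minus strand and Ltb at chr17:35194439-35196320 on the plus strand (GRCm38).

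Among ligands for antigen-presenting cells and osteoclast precursors, Tnfsf11 and Tnfsf14 had the highest fold changes of the members at 4 h. Tnfsf11, which encodes RANKL, was 8.21, 7.59, and 8.29 CPM at 0 h, 322, 501, and 403 CPM at 4 h, and 173, 238, and 174 CPM at 20 h. It rose 50.9-fold at 4 h (log2 5.67 ± 0.21, adjusted p = 1.15e-36) and stayed 24.2-fold above 0 h at 20 h (log2 4.60 ± 0.20). Tnfsf14, which encodes the HVEM ligand LIGHT, was 2.23, 1.75, and 3.66 CPM at 0 h, 189, 245, and 211 CPM at 4 h, and 43.2, 57.3, and 45.3 CPM at 20 h. It rose 83.5-fold at 4 h (log2 6.38 ± 0.29, adjusted p = 2.74e-31) and was 18.9-fold above 0 h at 20 h, having fallen 4.42-fold from 4 h. The fall of Tnfsf11 from 4 h to 20 h was 2.10-fold (log2 -1.07 ± 0.17), close to the threshold of 2.

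Cd40lg peaked at 4 h, and its 20 h libraries overlapped those at 0 h. It was 148, 135, and 105 CPM at 0 h, 821, 1005, and 900 CPM at 4 h, and 109, 175, and 122 CPM at 20 h. It rose 7.02-fold at 4 h (log2 2.81 ± 0.19, adjusted p = 4.70e-22), fell 6.71-fold from 4 h to 20 h, and at 20 h differed from 0 h by a log2 of 0.07 with a 95% interval from -0.28 to 0.42. Tnfsf8, which encodes the CD30 ligand, was 55.03, 53.4, and 52.5 CPM at 0 h, 350, 281, and 332 CPM at 4 h, and 86.3, 127, and 124 CPM at 20 h. It rose 5.98-fold at 4 h (adjusted p = 1.19e-20) and was 2.09-fold higher at 20 h than at 0 h (log2 1.06 ± 0.18). Tnfsf4, which encodes the OX40 ligand, rose late. It had 9 to 17 reads per library at 0 h (0.299 to 0.422 CPM), 18 to 41 reads at 4 h (0.639 to 1.06 CPM), and 297 to 307 reads at 20 h (8.65, 11.1, and 11.3 CPM). Its log2 change was 1.06 ± 0.34 at 4 h (adjusted p = 0.0101) and 4.75 ± 0.32 at 20 h (26.9-fold, adjusted p = 6.54e-22), and it was the only member called higher from 4 h to 20 h besides Tnfsf10.

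The death ligand genes moved in opposite directions. Fasl was 23.7, 13.3, and 11.7 CPM at 0 h, 121, 144, and 141 CPM at 4 h, and 13.1, 20.0, and 17.4 CPM at 20 h. It rose 8.35-fold at 4 h (log2 3.06 ± 0.24, adjusted p = 1.66e-18) and its 20 h libraries overlapped those at 0 h (log2 0.06, 95% interval -0.40 to 0.51). Tnfsf10, which encodes TRAIL, was 36.9, 36.4, and 38.9 CPM at 0 h, 4.50, 5.46, and 5.92 CPM at 4 h, and 12.7, 11.6, and 10.8 CPM at 20 h. It fell 7.06-fold at 4 h (log2 -2.82 ± 0.21, adjusted p = 2.40e-19), rose 2.21-fold from 4 h to 20 h, and was still 3.19-fold below 0 h at 20 h (log2 -1.67 ± 0.20).

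**Figure D1:**
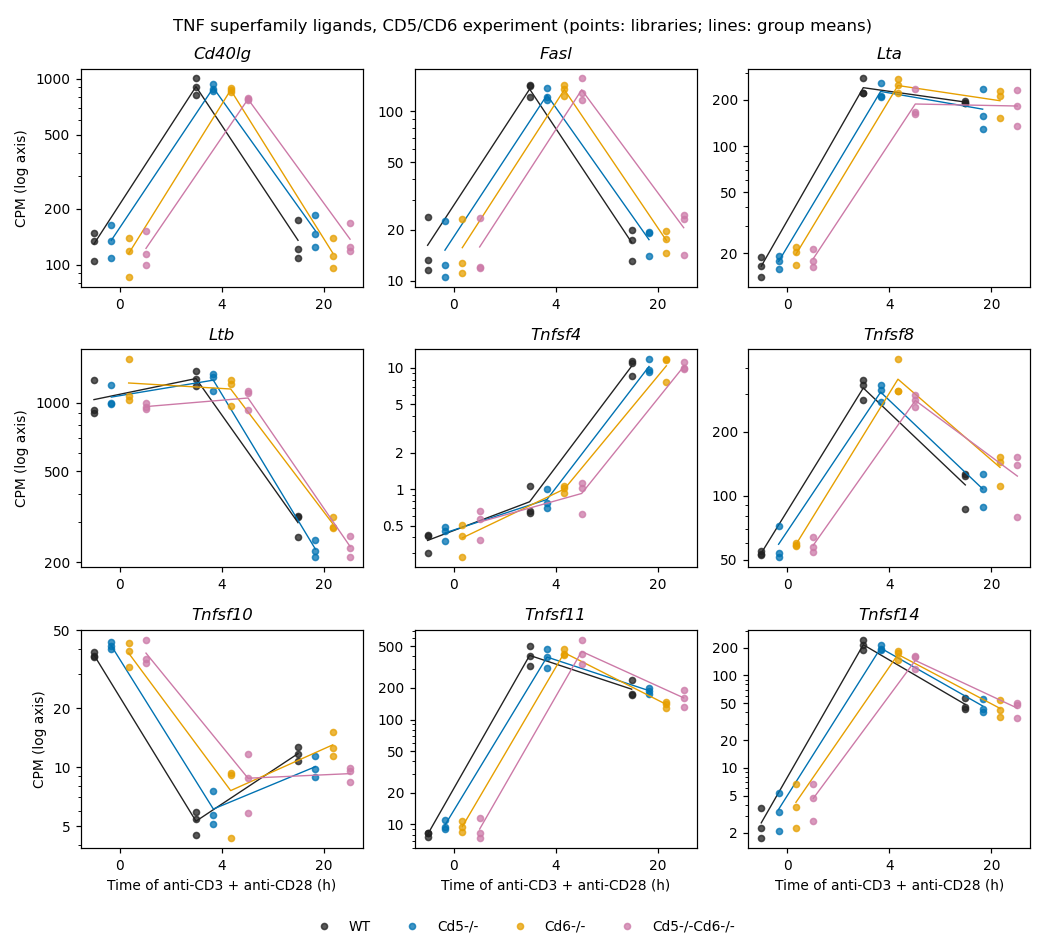
CPM (log axis) of the 9 ligand genes against time of stimulation (times evenly spaced, not to scale) in the CD5/CD6 experiment, with 1 point per library, lines through the means of 3 libraries, and 1 color per genotype. In all 4 genotypes, Cd40lg and Fasl peak at 4 h, Lta, Tnfsf11, and Tnfsf14 stay above 0 h at 20 h, Tnfsf4 is highest at 20 h, and the mean of Tnfsf10 is lowest at 4 h and that of Ltb at 20 h.

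The WT cells of the LAT experiment gave the same call for all 9 members at 4 h against 0 h, at 20 h against 0 h, and at 20 h against 4 h. There, 7 members rose and 1 fell at 4 h (8.05% and 9.29% of all genes), 5 rose and 2 fell at 20 h (10.8% and 12.7%), and 2 rose and 6 fell between 4 h and 20 h (7.90% and 9.32%). The tables were fitted apart, and levels were not compared between them. Tnfsf10 at 20 h against 0 h sat at the threshold, with a log2 change of -1.01 ± 0.18 that was inside 2-fold with DESeq2 (-0.95) and without WT 0 h library 3 (-0.80). The fall of Tnfsf11 from 4 h to 20 h (log2 -1.27) was not called by DESeq2 (adjusted p = 0.0882).

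**Figure D2:**
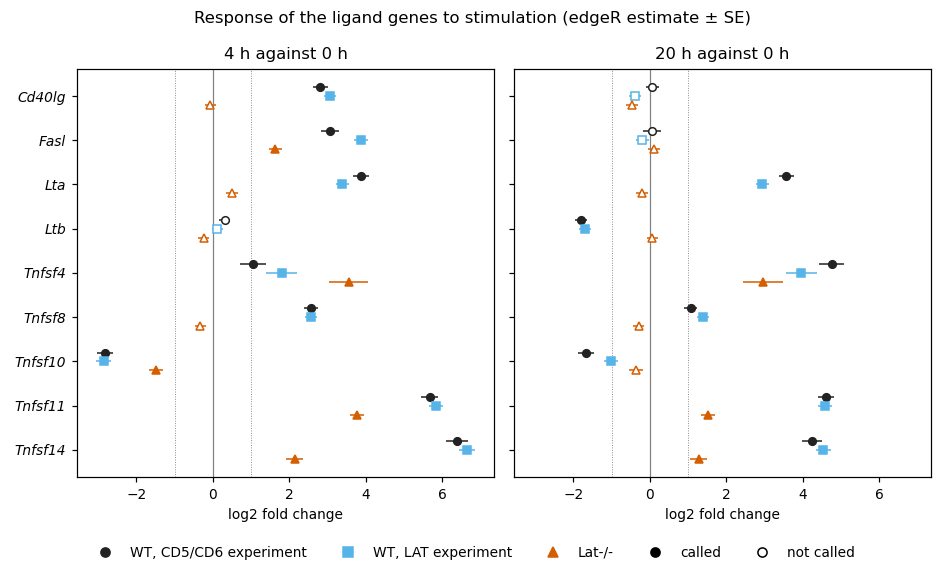
edgeR's log2 fold change of each ligand gene against 0 h with its SE, at 4 h (left) and 20 h (right), for the WT cells of both experiments and for Lat-/- cells. Filled symbols are called and open symbols are not, and dotted lines mark 2-fold. Circles and squares, the WT cells of the 2 experiments, lie together, whereas triangles for Lat-/- lie nearer to 0 for every member called in WT at 4 h except Tnfsf4.

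In Cd5-/-, Cd6-/-, and Cd5-/-Cd6-/- cells, the ligand genes responded in the pattern of WT. At 4 h, 7, 8, and 7 members were called in these genotypes in turn (19.5%, 18.0%, and 17.2% of all genes, in either direction), against 8 in WT. At 20 h, 6, 7, and 7 were called (30.0%, 28.2%, and 30.3%), against 7 in WT. Only Tnfsf4 at 4 h, in Cd5-/- and Cd5-/-Cd6-/- cells, and Tnfsf8 at 20 h, in Cd5-/- cells, differed in call from WT. These 3 values sat near the threshold, since the log2 change of Tnfsf4 ran from 0.77 to 1.36 over the mutants at 4 h (1.06 in WT) and that of Tnfsf8 from 0.87 to 1.20 at 20 h (1.06 in WT). For Tnfsf11, the mutants ran from 5.32 to 5.62 at 4 h (5.67 in WT), for Lta from 3.35 to 3.69 (3.87 in WT), and for Fasl from 3.04 to 3.09 (3.06 in WT). For Tnfsf14, they ran from 4.95 to 5.81 (6.38 in WT), and for Tnfsf10 from -2.77 to -2.12 (-2.82 in WT). These ranges include the 2 libraries at 0 h that went against their labels. Leaving out both kept the counts called at 4 h and 20 h at 7 and 6 for Cd5-/- and at 8 and 7 for Cd6-/- cells. Whether the responses differed between genotypes was not tested in this experiment.

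Set directly against WT at the same time, 0 of the 9 ligand genes were called in any of the 9 comparisons of a mutant with WT by edgeR or by DESeq2. Over all genes, edgeR called 0.0619%, 0.0743%, and 0.0186% for Cd5-/- at 0, 4, and 20 h, 0%, 0.00310%, and 0.0186% for Cd6-/-, and 0.0248%, 0.0434%, and 0.0434% for Cd5-/-Cd6-/-. Of the 81 member values, 8 had an unadjusted p under 0.05, where 541 to 1096 of 32290 genes did in each comparison, and the lowest adjusted p was 0.47. The log2 differences ran from -0.57 to 0.87, and 76 of the 81 intervals of 95% lay inside 2-fold in both directions. This fit took much of each gene's spread from all genes (50.9 prior beside 24 residual degrees of freedom). With edgeR's filter on low counts, the prior degrees of freedom were 4.73 and no member was called, but intervals were not computed. The SE of Tnfsf14 in Cd5-/-Cd6-/- cells at 0 h was then 0.339. Tnfsf14 and Tnfsf10 held 5 of the 8 low values. With the filter, edgeR's unadjusted p for Tnfsf14 was 0.0501 in Cd6-/- cells at 0 h and 0.0654 in Cd5-/-Cd6-/- cells at 4 h. Tnfsf14 at 0 h was 2.68, 4.67, and 6.69 CPM in Cd5-/-Cd6-/- cells against 2.23, 1.75, and 3.66 CPM in WT, and the groups overlapped (log2 0.87 ± 0.26, adjusted p = 0.823). Leaving out either Cd5-/-Cd6-/- library 1 or WT library 3 at 0 h brought Tnfsf14 past the threshold. Over the 4 genotypes, Tnfsf14 was 2.08 to 2.68 CPM in libraries 1 and 3.31 to 6.69 CPM in libraries 3. Each removal therefore left the replicate numbers unbalanced between the groups. Within each number, the mutant was higher than WT, and with a replicate block 0 members were called in this comparison. At 4 h, Tnfsf14 was 117, 162, and 157 CPM in Cd5-/-Cd6-/- cells and 189, 245, and 211 CPM in WT, with no overlap and a log2 difference of -0.57 (adjusted p = 1). Tnfsf10 at 4 h was 5.84, 11.7, and 8.82 CPM in Cd5-/-Cd6-/- cells against 4.50, 5.46, and 5.92 CPM in WT, with 1 library of the mutant inside the WT range (log2 0.73 ± 0.21, adjusted p = 0.47). For Cd40lg, the 9 differences ran from -0.23 to 0.17, and for Lta from -0.35 to 0.26, with intervals reaching -0.58 to 0.52 and -0.71 to 0.62. At 0 h, the 5 markers of γδ T cells summed to 35.7 to 38.2 CPM in WT, 37.8 to 102 CPM in Cd5-/-, 31.9 to 88.9 CPM in Cd6-/-, and 83.0 to 126 CPM in Cd5-/-Cd6-/- libraries, and their part in these values was not tested. Without both libraries that went against their labels, these sums were 92.3 and 102 CPM in Cd5-/- and 31.9 and 64.7 CPM in Cd6-/- cells. Without both 0 h libraries that went against their labels, 0 members were still called for Cd5-/- and Cd6-/- against WT at 0 h.

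**Figure D3:**
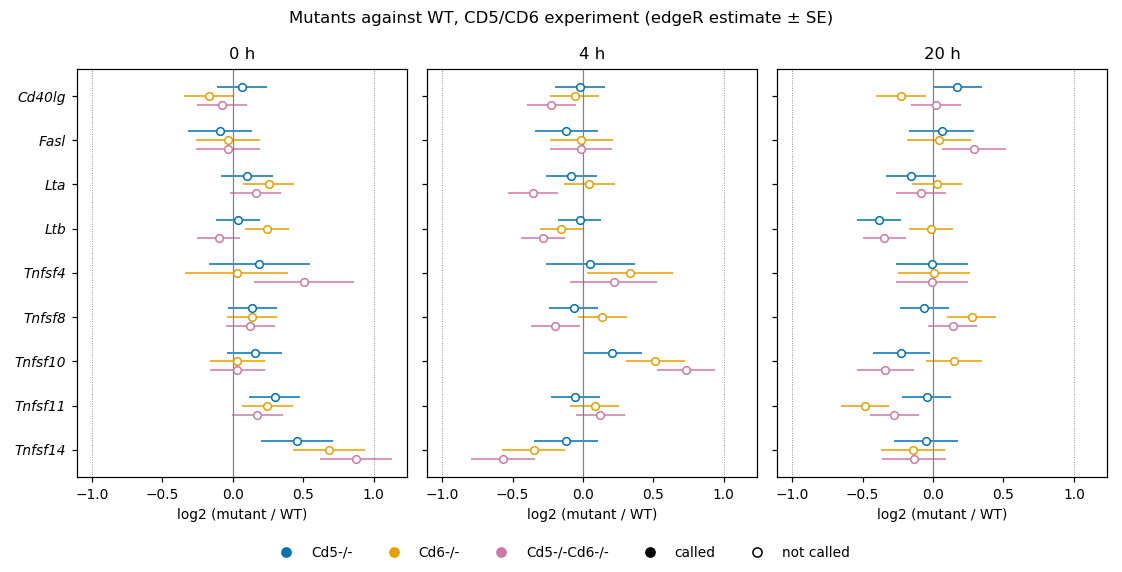
edgeR's log2 difference between each mutant and WT, with its SE, for the 9 ligand genes at 0 h, 4 h, and 20 h in the CD5/CD6 experiment. Dotted lines mark 2-fold, all symbols are open because 0 values were called, and the values farthest from 0 are Tnfsf14 at 0 h (0.87) and Tnfsf10 at 4 h (0.73), both in Cd5-/-Cd6-/- cells.

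In Lat-/- cells, fewer ligand genes were called after stimulation than in WT. At 4 h against 0 h, 4 members rose and 1 fell in Lat-/- cells (3.08% and 3.62% of all genes, member median log2 change 0.50), against 7 and 1 in the WT cells sorted beside them (member median 3.07). At 20 h against 0 h, 3 rose and 0 fell (2.14% and 2.07%), and DESeq2 also called 3 higher and 0 lower. At an unadjusted edgeR p under 0.05, 6 members and 5181 of 27780 genes passed there in either direction. Of these members, 3 were lower (Cd40lg, Tnfsf8, and Tnfsf10). With the filter on low counts described below, edgeR's unadjusted p was 0.00155 for Cd40lg, 0.217 for Tnfsf8, and 0.0635 for Tnfsf10. From 4 h to 20 h, 1 rose and 2 fell (2.00% and 2.10%). In this experiment, edgeR shared the spread fully over all genes (infinite prior degrees of freedom), so that a member's own spread between libraries did not enter its SE. With edgeR's filter on low counts, 13928 genes remained, the prior degrees of freedom were 6.46, 3 calls of members were lost, which are named where they arise, and 1 was gained (the difference between responses of Tnfsf4 at 4 h). Adjusted p values with that filter are given below as the filtered adjusted p.

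**Figure D4:**
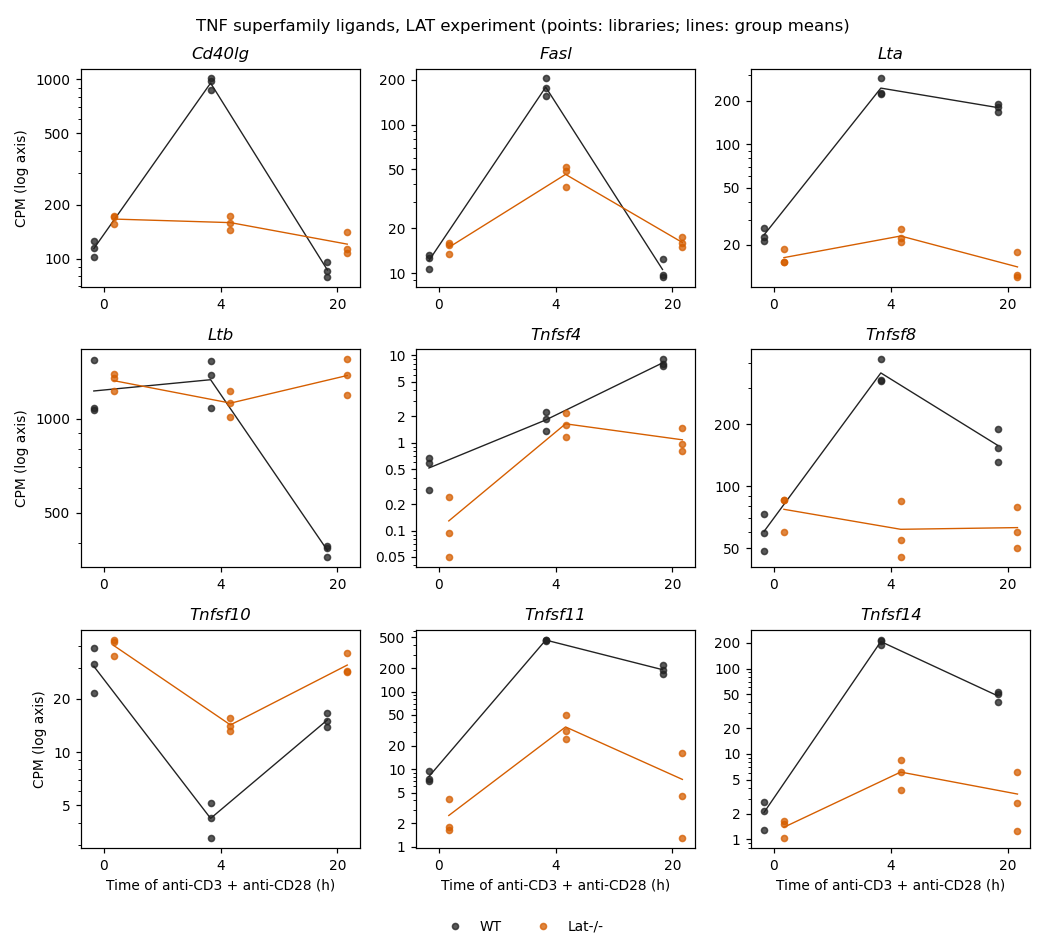
CPM (log axis) of the 9 ligand genes against time of stimulation (times evenly spaced, not to scale) in the LAT experiment, with 1 point per library and lines through the means of 3 libraries of WT (black) and Lat-/- (orange) cells. At 4 h, WT lies above Lat-/- for Cd40lg, Fasl, Lta, Tnfsf8, Tnfsf11, and Tnfsf14 and below it for Tnfsf10, and at 20 h Ltb is low in WT alone.

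Against WT at the same time, Lat-/- cells differed in 2 members at 0 h, 7 at 4 h, and 7 at 20 h. At 4 h, 6 members were lower and 1 higher (6.23% and 5.51% of all genes), and at 20 h, 5 were lower and 2 higher (12.3% and 12.1%). At 0 h, 2 were lower and 0 higher (0.814% and 0.148%). The difference between the responses, Lat-/- minus WT, was tested too. It was called negative for 6 members and positive for 1 at 4 h (4.34% and 4.37%), and for 4 and 1 at 20 h (9.35% and 10.1%). The positive values were those of Tnfsf10 at 4 h and Ltb at 20 h, which fell in WT by more than in Lat-/- cells.

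Lta did not pass the threshold at either time in Lat-/- cells, with log2 changes of 0.50 at 4 h and -0.21 at 20 h. It was 21.4, 26.2, and 22.7 CPM in WT and 15.2, 15.2, and 18.6 CPM in Lat-/- cells at 0 h, 286, 228, and 221 CPM against 21.0, 22.2, and 26.0 CPM at 4 h, and 167, 190, and 181 CPM against 12.0, 12.4, and 17.9 CPM at 20 h. The genotypes did not overlap at any time. Lta was 10.6-fold lower in Lat-/- cells at 4 h (log2 -3.41 ± 0.17, adjusted p = 1.66e-88, filtered adjusted p = 2.16e-10) and 12.8-fold lower at 20 h (log2 -3.67 ± 0.17, filtered adjusted p = 8.49e-12). Ltb was 1386, 1087, and 1530 CPM in WT and 1017, 1228, and 1124 CPM in Lat-/- cells at 4 h, which overlap, and 386, 392, and 360 CPM against 1192, 1384, and 1555 CPM at 20 h, which do not. At 20 h, Ltb was 3.63-fold higher in Lat-/- cells (log2 1.86 ± 0.15, filtered adjusted p = 9.54e-09), and its change from 0 h to 20 h in Lat-/- cells was a log2 of 0.05 with a 95% interval from -0.23 to 0.34.

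Tnfsf11 and Tnfsf14 were the members farthest below WT at 4 h and 20 h. Tnfsf11 was 7.14, 7.44, and 9.56 CPM in WT and 1.78, 1.63, and 4.19 CPM in Lat-/- cells at 0 h, 451, 465, and 469 CPM against 30.7, 24.5, and 49.8 CPM at 4 h, and 170, 188, and 217 CPM against 4.50, 1.30, and 16.4 CPM at 20 h. It was 13.2-fold lower in Lat-/- cells at 4 h (log2 -3.72, SE 0.17, or 0.52 with the filter, filtered adjusted p = 9.67e-06) and 26.0-fold lower at 20 h (log2 -4.70, filtered adjusted p = 4.38e-07). Within Lat-/- cells, it still rose 13.6-fold at 4 h (log2 3.77, SE 0.18, or 0.57 with the filter, filtered adjusted p = 5.91e-05). At 0 h, Tnfsf11 was 3.13-fold lower in Lat-/- cells with no overlap (log2 -1.65 ± 0.18, adjusted p = 1.74e-16), but the filtered adjusted p was 0.266 and DESeq2's adjusted p was 0.17. Tnfsf14 was 218, 190, and 212 CPM in WT and 6.21, 3.76, and 8.43 CPM in Lat-/- cells at 4 h, and 40.9, 49.9, and 52.9 CPM against 2.68, 1.26, and 6.22 CPM at 20 h. It was 33.5-fold lower in Lat-/- cells at 4 h (log2 -5.07, filtered adjusted p = 1.24e-08) and 14.2-fold lower at 20 h (log2 -3.83, filtered adjusted p = 4.78e-08), and it rose 4.40-fold from 0 h to 4 h within Lat-/- cells (filtered adjusted p = 0.000769). Lat-/- library 3 at 20 h held the highest level of both genes, and the calls for Tnfsf11 and Tnfsf14 at 20 h against 0 h within Lat-/- cells were lost without it (log2 0.12 and 0.46 in place of 1.52 and 1.27). With the filter, Tnfsf11 was not called in that comparison (filtered adjusted p = 0.0661).

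Cd40lg and Tnfsf8 rose at 4 h in WT and did not pass the threshold at 4 h or 20 h in Lat-/- cells. Cd40lg was 125, 102, and 114 CPM in WT and 172, 170.5, and 156 CPM in Lat-/- cells at 0 h, 976, 1011, and 873 CPM against 158, 144, and 174 CPM at 4 h, and 84.7, 95.4, and 79.0 CPM against 112, 141, and 108 CPM at 20 h. It was higher in every Lat-/- library than in every WT library at 0 h and 20 h, by a log2 of 0.55 and 0.48, under the 2-fold threshold. At 4 h, Cd40lg was 6.01-fold lower in Lat-/- cells (log2 -2.59 ± 0.16, adjusted p = 1.13e-58, filtered adjusted p = 2.29e-10). The change of Cd40lg from 0 h to 4 h in Lat-/- cells was a log2 of -0.07 with a 95% interval from -0.36 to 0.22. Tnfsf8 was 329, 417, and 324 CPM in WT and 54.9, 45.0, and 85.2 CPM in Lat-/- cells at 4 h, and 132, 153, and 190 CPM against 59.6, 49.8, and 79.2 CPM at 20 h. It was 5.78-fold lower in Lat-/- cells at 4 h (log2 -2.53 ± 0.16, filtered adjusted p = 1.27e-07). At 20 h, it was 2.52-fold lower (log2 -1.33 ± 0.15, filtered adjusted p = 4.7e-05). Its change from 0 h to 4 h in Lat-/- cells was a log2 of -0.32 (95% interval -0.62 to -0.03, adjusted p = 0.153). With the filter, this change was -0.30 with a larger SE of 0.228 (filtered adjusted p = 0.337).

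Tnfsf4 was the member that rose at 4 h in Lat-/- cells without a call against WT at that time. It had 1, 2, and 6 reads at 0 h in Lat-/- cells and 17, 7, and 17 reads in WT, 28, 37, and 31 reads against 40, 30, and 59 at 4 h, and 19, 22, and 35 reads against 183, 245, and 172 at 20 h. Over the 3 libraries, Lat-/- cells had 96 reads at 4 h against 9 at 0 h. Scaled by library totals with TMM factors, this was a ratio of 11.7 with a counting interval of 95% from 5.92 to 26.4. The same ratio in WT was 3.53 (2.47 to 5.15). At 4 h, the genotypes overlapped (log2 -0.16, 95% interval -0.90 to 0.57), and at 20 h, Tnfsf4 was 7.51-fold lower in Lat-/- cells (log2 -2.91 ± 0.38, filtered adjusted p = 7.35e-07). The lower level at 0 h (log2 -1.91 ± 0.57, adjusted p = 0.0479) was not called with the filter (filtered adjusted p = 0.0988), by DESeq2 (adjusted p = 0.0519), or when WT library 1 or 3 or Lat-/- library 1 or 2 at 0 h was left out.

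The death ligand genes changed at 4 h in the same direction in Lat-/- cells as in WT, but by less. Fasl was 204, 156, and 175 CPM in WT and 48.7, 51.7, and 38.2 CPM in Lat-/- cells at 4 h. It rose 3.10-fold in Lat-/- cells (log2 1.63 ± 0.17, adjusted p = 1.70e-20, filtered adjusted p = 3.29e-07) against 14.7-fold in WT (log2 3.88 ± 0.18). The difference between responses was -2.25 ± 0.23 (adjusted p = 1.43e-19, filtered adjusted p = 1.15e-06). At 20 h, Fasl was 9.80, 9.44, and 12.5 CPM in WT and 15.9, 17.5, and 14.9 CPM in Lat-/- cells (log2 0.61, under 2-fold, adjusted p = 0.00122, filtered adjusted p = 0.00185). Tnfsf10 was 31.4, 21.6, and 38.8 CPM in WT and 35.0, 43.3, and 42.0 CPM in Lat-/- cells at 0 h, which overlap, and 3.27, 5.13, and 4.26 CPM against 15.5, 13.2, and 14.0 CPM at 4 h, which do not. It fell 2.81-fold at 4 h in Lat-/- cells (log2 -1.49 ± 0.18) against 7.24-fold in WT (log2 -2.86 ± 0.20), a difference between responses of 1.36 ± 0.26 (adjusted p = 5.42e-06, filtered adjusted p = 0.000967). At 20 h, it was 36.3, 28.2, and 28.8 CPM in Lat-/- cells and 13.9, 16.7, and 15.0 CPM in WT, 2.04-fold higher, which DESeq2 put at a log2 of 0.99, under the threshold.

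**Figure D5:**
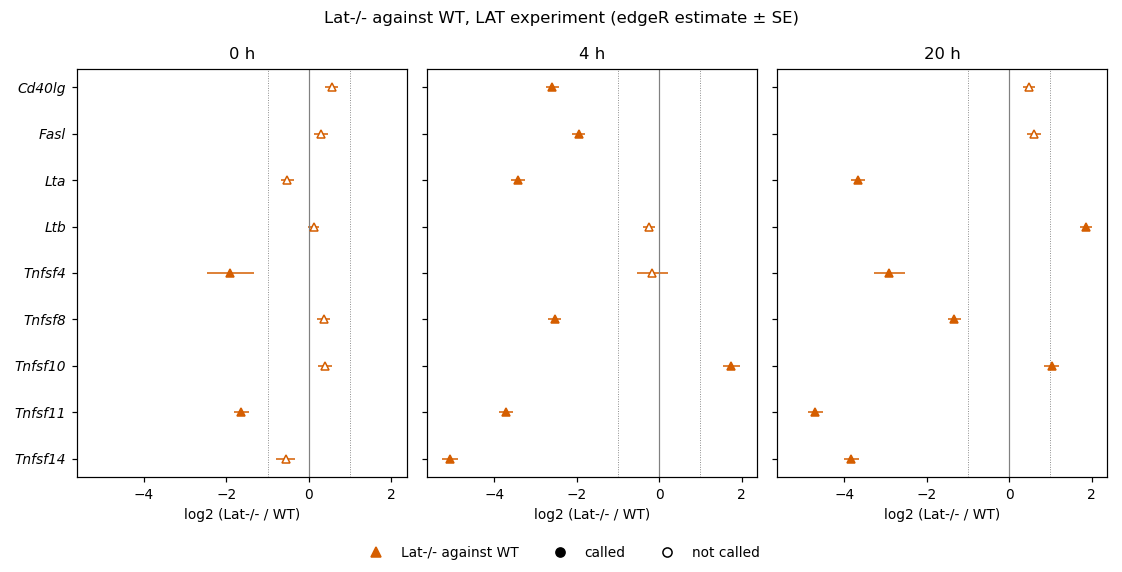
edgeR's log2 difference between Lat-/- and WT cells, with its SE, for the 9 ligand genes at 0 h, 4 h, and 20 h in the LAT experiment, with filled symbols for called genes and dotted lines at 2-fold. At 4 h, 6 members lie to the left of the lower line and Tnfsf10 to the right of the upper one, and at 20 h Ltb (1.86) joins Tnfsf10 on the right.

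Markers of other T cell subsets, of NK cells, and of activation moved with these comparisons. The sum of Foxp3 and Ikzf2, the 2 markers measured, was 60.6 to 91.1 CPM in WT and 19.5 to 34.8 CPM in Lat-/- libraries at 0 h, 50.1 to 71.2 CPM and 7.04 to 29.0 CPM at 4 h, and 34.5 to 36.9 CPM and 4.53 to 10.6 CPM at 20 h. Neither gene was at 0 in any group mean. The 5 markers of γδ T cells summed to 31.7 to 45.2 CPM in WT and 14.5 to 16.5 CPM in Lat-/- libraries at 0 h, and 3 of the 5 were called lower at 0 h and at 4 h. The 4 markers of NK cells, all called lower at 0 h, summed to 1.79 to 21.2 CPM and 3.59 to 6.02 CPM there, which overlap. The 5 activation genes summed to 438 to 557 CPM and 248 to 361 CPM at 0 h, with 3 of the 5 called lower, and all 5 were lower at 4 h and 20 h. These marker calls come from the fit that shared the spread fully over all genes, and calls with the filter were not computed for them. The part of these markers in the member values of Lat-/- cells was not tested. The 3 naive T cell markers measured summed to 1450 to 2800 CPM in WT and 4250 to 4860 CPM in Lat-/- libraries at 4 h.

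Of the 11 genes for receptors of these ligands, 4 rose in the WT cells of both experiments at 4 h, namely Tnfrsf1b, Tnfrsf4, Tnfrsf8, and Tnfrsf10b. Tnfrsf1b, a receptor of TNF and lymphotoxin α, went from 96.4 ± 14.2 to 853 ± 99.2 CPM (mean ± SD, n = 3) in the WT libraries of the CD5/CD6 experiment and was 136 ± 19.0 CPM at 20 h. Tnfrsf4, which encodes OX40, the receptor of OX40L, went from 15.6 ± 1.80 to 157 ± 12.1 CPM at 4 h and 564 ± 74.98 CPM at 20 h, and Tnfrsf10b, the TRAIL receptor, from 5.25 ± 1.09 to 25.7 ± 2.58 and 24.8 ± 3.51 CPM. Tnfrsf8, which encodes CD30, had 3 to 14 reads per library at 0 h and 98 to 153 at 20 h. At 20 h, Tnfrsf1a and the HVEM gene Tnfrsf14 were called lower in the WT cells of both experiments, with Tnfrsf14 at 27.6 ± 5.19 CPM at 0 h and 10.8 ± 2.44 CPM at 20 h in the CD5/CD6 experiment. Cd40, Ltbr, and Tnfrsf11a were also called at 4 h in WT of the CD5/CD6 experiment alone. There, 5 of the 11 were higher and 2 lower (8.24% and 11.1% of all genes), against 4 and 0 in the LAT experiment (8.05% and 9.29%). In WT of the CD5/CD6 experiment, Cd40 had 37 to 220 reads per library at 0 h, against 0 to 4 in sorted WT cells, beside the B cell markers given above. Fas was not called in any of the WT comparisons.

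In Lat-/- cells against WT, 0 receptor genes were higher and 4 lower at 4 h (5.51% and 6.23% of all genes). These were the 4 that rose in WT. At 20 h, 2 were higher and 3 lower (12.1% and 12.3% of all genes). Tnfrsf4 was also lower at 0 h, at 6.34 ± 2.13 CPM against 30.4 ± 6.16 CPM (log2 -2.25 ± 0.17), and it rose in Lat-/- cells at 4 h to 47.2 ± 14.9 CPM, with a log2 change of 2.89 against 2.87 in WT. Tnfrsf14 was higher in Lat-/- cells at 20 h, 50.2 ± 8.11 CPM against 12.0 ± 0.746 CPM, while the gene of its ligand, Tnfsf14, was lower. In the CD5/CD6 experiment, edgeR called 0 of the 11 receptors and 0 of the 9 other ligands of the family in any comparison of a mutant with WT (0% to 0.0743% of all genes). There, 11 of 99 receptor values and 5 of 81 other ligand values had an unadjusted p under 0.05. For the receptors and other ligands, DESeq2's calls and calls with the filter on low counts were not computed in either experiment.

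Among the 9 other ligands of the family, Tnf and Tnfsf9, the 4-1BB ligand gene, rose at 4 h and 20 h in the WT cells of both experiments. In WT of the CD5/CD6 experiment, 3 were called higher and 1 lower at 4 h (8.24% and 11.1% of all genes). At 20 h, 4 were higher and 2 lower there (12.3% and 17.3%). In WT of the LAT experiment, 8 were tested. Of these, 2 were higher and 0 lower at 4 h (8.05% and 9.29%), and 4 and 0 at 20 h (10.8% and 12.7%). Tnf went from 12.4 ± 5.60 to 706 ± 161 and 115 ± 18.4 CPM in WT of the first experiment, and Tnfsf9 from 1.52 ± 0.565 to 15.2 ± 1.33 and 6.14 ± 0.801 CPM. In Lat-/- cells at 4 h, Tnf was 49.7 ± 15.4 CPM, against 638 ± 103 CPM in WT (log2 -3.68), and Tnfsf9 was 2.38 ± 0.971 CPM against 17.0 ± 1.21 CPM (log2 -2.82). Cd70 had 0 reads in each WT library of the CD5/CD6 experiment at 0 h and 8 to 18 at 20 h, and Tnfsf15 had 0 at 0 h and 4 h and 5 to 20 at 20 h.

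The genes most like each member were named by the correlation of the 12 group means of log2 CPM in the CD5/CD6 experiment, among 10783 genes that averaged 50 counts or more per library. These groups share libraries and the same stimulation, so the values are descriptions. The closest gene was Nfatc1 for Cd40lg (r = 0.997, and 0.927 over the 6 group means of the LAT experiment), Nr6a1 for Fasl (0.999 and 0.969), Il2ra for Lta (0.999 and 0.974), Bcl2a1b for Tnfsf11 (0.998 and 0.986), and Bcl2a1d for Tnfsf14 (0.997 and 0.939). For Tnfsf8 it was Egr2 (0.997 and 0.785), for Tnfsf10 Pxmp4 (0.996 and 0.974), for Ltb Xkrx (0.997 and 0.909), and for Tnfsf4 Ahcy (0.999 and 0.883). Bcl2a1b and Bcl2a1d are near-identical copies, and reads could have been divided between them. With a prior count of 0.25 in place of 2, 25 of the 27 genes found by this rule, 3 per member, were shared, and the closest gene became Zfp948 for Tnfsf8 and Tnfrsf9 for Tnfsf14.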

How the data were processed

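Poly(A) RNA was sequenced with a stranded kit as single reads of 50 bases. Per the study's methods and the labels, the authors removed adapter dimers, aligned reads to GRCm38 with STAR, and counted them per gene with featureCounts (base calls by bcl2fastq 2.17.1.14; the annotation release and the strand setting are not given in the sources used here). The deposited values are raw counts per gene, with 1 table per experiment, and 54487 of 55385 gene identifiers matched a symbol.

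From these counts, edgeR 4.0.16 (R 4.3.3) fitted a quasi-likelihood model to each table apart, with all its samples, TMM factors, and genes of at least 1 read in total. A call needed a fold change above 2 and a Benjamini-Hochberg adjusted p under 0.05 over all genes. The difference between responses was the interaction of genotype and time. The study itself used DESeq2, here an alternative (version 1.42.0). Other alternatives were RLE factors, library totals, edgeR's filterByExpr, the compared groups alone, a replicate block, adjusted p alone, leaving out each library, and leaving out both 0 h libraries that went against their labels. On simulated counts with 200 changed genes, edgeR recovered 198 (WT at 4 h against 0 h, 32290 genes of the CD5/CD6 experiment) and 176 (difference between responses at 4 h, 27780 genes of the LAT experiment). It made 3 and 4 false calls. The simulation gave every gene the same spread, so it checks the code and cannot show how the fits treat genes that differ in spread.

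The members, gene lists, and tests were chosen with earlier results of these data known. Genes named were all members, some of the called receptors and other ligands, and, for each member, the genes with the highest correlation. Replicate pairs differed by 3.16 to 175 times the sampling noise (chi-square per degree of freedom), so no library was counted as a duplicate. Same-numbered samples deviated together (r over 0.1 in every pair) in 11 of 18 comparisons of the CD5/CD6 experiment and 1 of 9 of the LAT experiment, so that the numbers paired the samples in those comparisons by the correlation of their deviations, and the labels do not say what a number shares. Markers not matched in the tables were left out of their sums. Figures were drawn with matplotlib 3.10.9.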

Additional observations from a re-analysis of the deposited data

Results flagged for a closer look

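The responses of 7 members at 4 h and 5 at 20 h differed between Lat-/- and WT cells by edgeR's interaction test. Over all genes, 4.37% were called with a positive and 4.34% with a negative difference at 4 h, and 10.1% and 9.35% at 20 h. All values are log2 differences between the response in Lat-/- cells and that in WT, with SE. These SEs come from the fit that shared the spread fully over all genes. At 4 h, the difference was -4.51 ± 0.30 for Tnfsf14, -3.13 ± 0.21 for Cd40lg, -2.89 ± 0.23 for Lta, -2.89 ± 0.22 for Tnfsf8, -2.25 ± 0.23 for Fasl, -2.07 ± 0.24 for Tnfsf11, and 1.36 ± 0.26 for Tnfsf10, whose fall was smaller in Lat-/- cells. At 20 h, it was -3.26 ± 0.30 for Tnfsf14, -3.15 ± 0.23 for Lta, -3.05 ± 0.25 for Tnfsf11, -1.69 ± 0.21 for Tnfsf8, and 1.75 ± 0.21 for Ltb, which fell in WT alone by the calls. With edgeR's filter on low counts, the SE for Tnfsf11 was 0.74 at 4 h (adjusted p = 0.0402) and 0.76 at 20 h (adjusted p = 0.00244), and DESeq2 did not call its difference at 4 h (adjusted p = 0.0574). For Tnfsf14, the SE with the filter was 0.594 at 4 h and 0.595 at 20 h, and for Tnfsf8 0.327 and 0.323. It was lower than given above for Cd40lg (0.178) and Fasl (0.213) at 4 h. The difference for Tnfsf4 at 4 h was 1.75 ± 0.69 (adjusted p = 0.0674) and was called with the filter (adjusted p = 0.0426), by DESeq2, and with the replicate block.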

How the results depend on the processing

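Of the calls of single members recomputed under the alternatives, 1709 values kept their direction and call, 42 lost the call, and 0 changed sign. Among the 1709 are 127 from adjusted p alone, which reuses the same fit and could not lose a call. Values not called in the main fit are outside this tally, and 115 of 840 of them changed sign when 1 library was left out. Counts of members called moved by more than 1.5 times in 11 cases and not in 384. For Lat-/- against WT at 0 h (2 called), the count was 0 with DESeq2, 0 with filterByExpr, 1 in a fit of only the groups compared, and 1 to 2 when each library was left out. For 20 h against 4 h in Lat-/- cells (3 called), it was 5 by adjusted p alone. Leaving out each library gave 0 to 1 for Cd5-/-Cd6-/- against WT at 0 h and 1 to 3 for 20 h against 0 h in Lat-/- cells, where Lat-/- library 3 decided. The lost calls were mostly of values near 2-fold: without WT 4 h library 2, Tnfsf4 in WT of the CD5/CD6 experiment was 0.76 at 4 h, and Tnfsf8 at 20 h ran from 0.97 to 1.23 over the libraries left out.

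Library totals in place of TMM factors shifted the median of all genes by -0.245 in WT at 4 h of the CD5/CD6 experiment. With totals, the level at 0 h in WT was 15.45 CPM/kb for Tnfsf8, 7.77 for Tnfsf10, and 3.93 for Tnfsf11, and that of Ltb at 4 h was 778 CPM/kb. With a prior count of 0.25, the highest correlation was 0.997 for Tnfsf8 and 0.996 for Tnfsf14. Apart from values named above, the causes of these shifts were not tested.

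With the replicate block, no count of members called changed in the CD5/CD6 experiment (8, 7, and 8 in the WT comparisons) or for Lat-/- against WT at 0 h (2), the comparisons in which the numbers paired samples among them. In the LAT experiment, where the other comparisons shared only a number, 6 in place of 7 were called in WT at 20 h (Tnfsf10, log2 -0.9991) and 8 in place of 7 for the difference between responses at 4 h. Depth limits Tnfsf4 most, with 1 to 6 reads per Lat-/- library at 0 h.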

Other observations

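At 0 h in the CD5/CD6 experiment, Fasl differed with the replicate number of the labels in all 4 genotypes. It was 22.7 to 23.7 CPM in the 4 libraries numbered 1, 10.6 to 13.3 CPM in those numbered 2, and 11.1 to 12.3 CPM in those numbered 3. Cd40lg was 139 to 164 CPM, 100 to 135 CPM, and 86.0 to 134 CPM in the same libraries, and the 5 activation genes of the marker lists summed to 914 to 1040 CPM, 616 to 648 CPM, and 354 to 435 CPM. Tnfsf14 was 2.08 to 2.68 CPM in the libraries numbered 1 and 3.31 to 6.69 CPM in those numbered 3. What the numbers share is not given in the labels.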
